A study of Danio rerio with 24 samples.

Results

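Skeletal muscle of untrained zebrafish (Danio rerio) carrying a PGC1alpha transgene was compared with skeletal muscle of untrained wild-type zebrafish, both 4 months old. The comparison rests on 14 of the 21 libraries of the study's count table, 7 from transgenic samples (untrained_TG) and 7 from wild-type samples (untrained_WT), taken by the group that their column names give. The transgene is written actc1b:PGC1alpha, which puts PGC1alpha under the promoter of actc1b, a muscle actin gene, so expression is directed to muscle fibres. Which species or part of PGC1alpha the construct holds, and how many founder lines it came from, the labels do not say. The labels list 8 samples for each group, and those without a column were not analysed here. A further group, exercise-trained wild-type fish (trained_WT, 7 libraries), served for the estimate of spread and for values set beside the transgenic ones. Libraries were made from polyadenylated RNA with strand information and sequenced as 1 pool. Whether a sample was 1 fish or several is not stated, so the spread behind each p-value is that between libraries, which may be technical in part.

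PGC1alpha is a transcriptional coactivator: it binds no DNA itself but joins nuclear receptors and other factors, among them estrogen-related receptors, PPARs and nuclear respiratory factors, at the promoters of mitochondrial genes. In mouse muscle its overexpression is known to raise mitochondrial content and to move fast fibres toward a slow, oxidative type. Zebrafish trunk muscle is mostly fast fibres, which burn glycogen and relax quickly with the help of parvalbumin, with a thin outer sheet of slow fibres that are rich in mitochondria and myoglobin. Many zebrafish genes have 2 copies from a whole-genome duplication in an ancestor of teleost fishes. Such copies, marked a and b, can serve different fibre types.

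Counts over genes came to between 71.0 and 79.2 M per wild-type library and between 42.8 and 78.1 M per transgenic library, the lowest being untrained_TG replicate 7. Each library held the transcripts that define skeletal muscle, for example the creatine kinase gene ckma at 14672 to 38176 CPM (counts per 1e6 on scaled library sizes) in wild type and 6738 to 9543 in transgenic muscle. The first principal component of the 14 libraries, with 43.1% of the variance, placed every transgenic library (32.8 to 92.4) apart from every wild-type library (-108.4 to -35.9). Germ-line markers were present in untrained_WT replicates 3 and 7, in which the list summed to 139 and 85.7 CPM, against 5.54 to 20.2 CPM in the other 5 wild-type libraries. Transgenic libraries summed to 22.9 to 35.7 CPM, most of it from 1 gene, zp3d.1 (18.0 to 32.6 CPM), while ddx4, a defining germ-cell marker, reached 18.8 CPM in wild type and at most 0.422 CPM in transgenic libraries. Of the 14 germ-line markers tested, 1 was called higher and 11 lower, that is 7.14% and 78.6% against 18.3% and 25.1% over all genes tested. Against trained wild-type muscle 2 were called higher and 1 lower. The call of ddx4 was lost without untrained_WT replicates 3 and 7 (adjusted p = 0.0955 in edgeR's quasi-likelihood test). The part of germ-line RNA in the results was not tested, and counts without these libraries are given below.

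Of 18947 genes tested, 8232 (43.4%) were called at an adjusted p under 0.05, 3468 higher (18.3% of those tested) and 4764 lower (25.1%). Each count of list members called below is to be set beside these shares. The median log2 fold change over all genes tested, transgenic minus wild type, was -0.13. Rises, falls and fold changes of genes are given below on this log2 scale, ± the standard error of the fit. Of the calls, 1949 rose and 2965 fell by at least 1 log2 unit, and 80 rose and 208 fell by at least 4. Transgenic and wild-type libraries did not overlap in 15.8% of genes, 7.51% with every transgenic library above and 8.26% with every transgenic library below. Without untrained_WT replicates 3 and 7, 3481 genes were called higher and 4057 lower, of which 3051 and 3838 had the same call in the full comparison. The authors' deposited table of the same comparison has 3884 genes higher and 5198 lower, and 8081 genes were called the same way in both.

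The endogenous genes of the construct were examined first. Zebrafish ppargc1a ranged from 6.62 to 44.1 CPM (median 37.9) in wild-type and from 4.97 to 28.0 CPM (median 14.3) in transgenic libraries, and its log2 fold change was -0.74 ± 0.43 (adjusted p = 0.168), so the ranges overlapped and no difference was called. With library totals as the only scaling it was called lower, at -1.12 (adjusted p = 0.032). Its relative ppargc1b was not called either, at 0.33 ± 0.24 (adjusted p = 0.286). The promoter's own gene actc1b ranged from 8057 to 36618 CPM (median 25078) in wild-type and from 2234 to 4151 CPM (median 3130) in transgenic libraries, with every transgenic library below every wild-type one, and fell by 2.95 ± 0.27 (adjusted p = 1.13e-08). Because the construct's coding sequence is not given, the ppargc1a count may not include the transgene and does not check the genotype labels. In bulk muscle, fewer fibres of a type and less RNA per fibre cannot be told apart, which holds for each gene below.

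The make-up of the muscle's polyadenylated RNA differed between the groups. The 13 protein-coding genes of the mitochondrial genome took 8.17% to 14.8% of counts in wild-type libraries and 42.8% to 49.4% in transgenic ones. Fast myosin heavy chains took 4.16% to 12.4% and 0.103% to 0.474%, and fast thin filament and light chain genes 6.92% to 13.1% and 0.475% to 1.198%. Parvalbumins, the calcium buffers of fast fibres, took 3.29% to 4.90% and 0.0827% to 0.279%. Creatine and adenylate kinases, which buffer ATP, went from 9.11% ± 1.76 (SD, n = 7) to 2.26% ± 0.180, and glycolysis from 5.13% ± 1.29 to 1.37% ± 0.163. Nuclear-encoded respiratory subunits went from 2.998% ± 0.377 to 7.24% ± 0.264, mitochondrial ribosomal proteins from 0.212% ± 0.0232 to 0.366% ± 0.0353, and slow and cardiac sarcomere genes from 0.654% ± 0.0917 to 2.99% ± 0.678. In each of these 9 classes no transgenic library overlapped a wild-type one. The exact two-sided permutation p was 0.000583, the smallest that 7 against 7 allows (adjusted p = 0.000641 over 11 classes). The members of these classes were chosen with earlier results of these data known. The permutation p-values therefore describe the separation of the libraries and are no independent support. Cytosolic ribosomal proteins took 3.25% ± 0.862 and 2.31% ± 0.217, with overlapping ranges (exact permutation p = 0.00408). With the 13 mitochondrial protein genes left out of the total, the difference turned to 0.705 percentage points higher in transgenic muscle (exact permutation p = 0.142). In the trained wild-type group the mitochondrially encoded share was 11.2% ± 1.45 and the fast myosin share 7.94% ± 1.44.

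**Figure D1:**
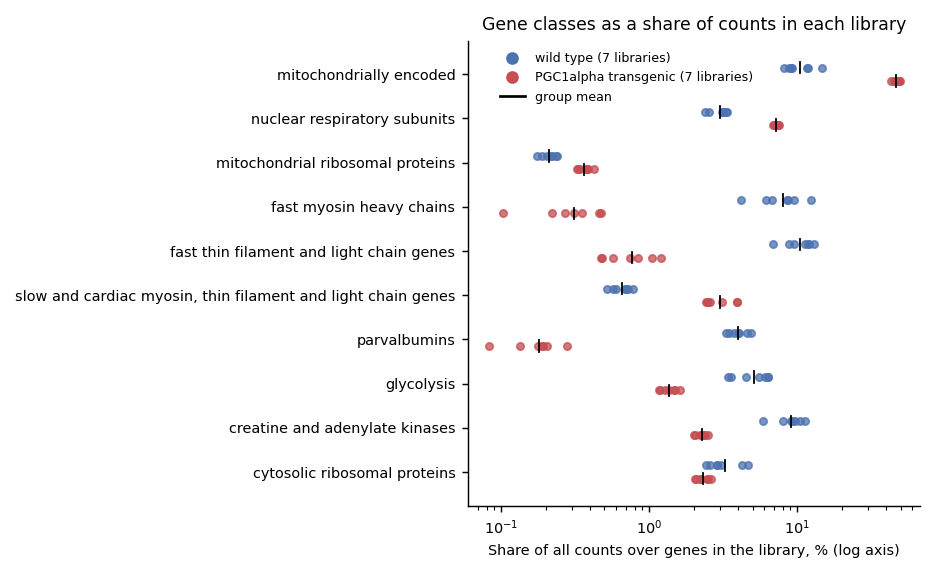
Share of all counts over genes (%, log axis) taken by 10 gene classes in each of the 14 libraries, with a bar at each group mean. Transgenic libraries lie to the right of wild-type libraries for mitochondrial and slow sarcomere classes and to the left for fast myosin, fast thin filament, parvalbumin, glycolysis and kinase classes, while cytosolic ribosomal proteins overlap.

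Among single genes, myhc4, a fast myosin heavy chain gene, ranged from 17767 to 124329 CPM (median 63915) in wild-type and from 17.9 to 212 CPM (median 23.6) in transgenic libraries, and in untrained_TG replicate 7 it was 212 CPM while the other transgenic libraries held at most 31.7. The mitochondrial gene mt-co1, which encodes the catalytic subunit of cytochrome c oxidase, ranged from 26658 to 51309 CPM (median 38510) in wild-type and from 146059 to 239829 CPM (median 174722) in transgenic libraries. It rose by 2.26 ± 0.18 (adjusted p = 2.49e-09), and all 13 mitochondrial protein genes rose, by 2.26 to 4.88 log2 units. The gene si:ch211-165d12.4, which the files do not describe further, ranged from 1.45 to 2.43 CPM (median 1.97) in wild-type and from 119.7 to 156 CPM (median 143) in transgenic libraries and rose by 6.14 ± 0.17 (adjusted p = 5.87e-17). The parathyroid hormone gene pth1b ranged from 1.06 to 6.84 CPM (median 3.89) in wild-type and from 83.7 to 300.0 CPM (median 128) in transgenic libraries, a rise of 5.08 ± 0.38. Among the 12 genes with the lowest fold changes under the naming rule were trim101 (-5.81 ± 0.40), the fibroblast growth factor homologous factor gene fgf12b (-5.42 ± 0.32) and igfn1.4 (-5.50 ± 0.59).

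**Figure D2:**
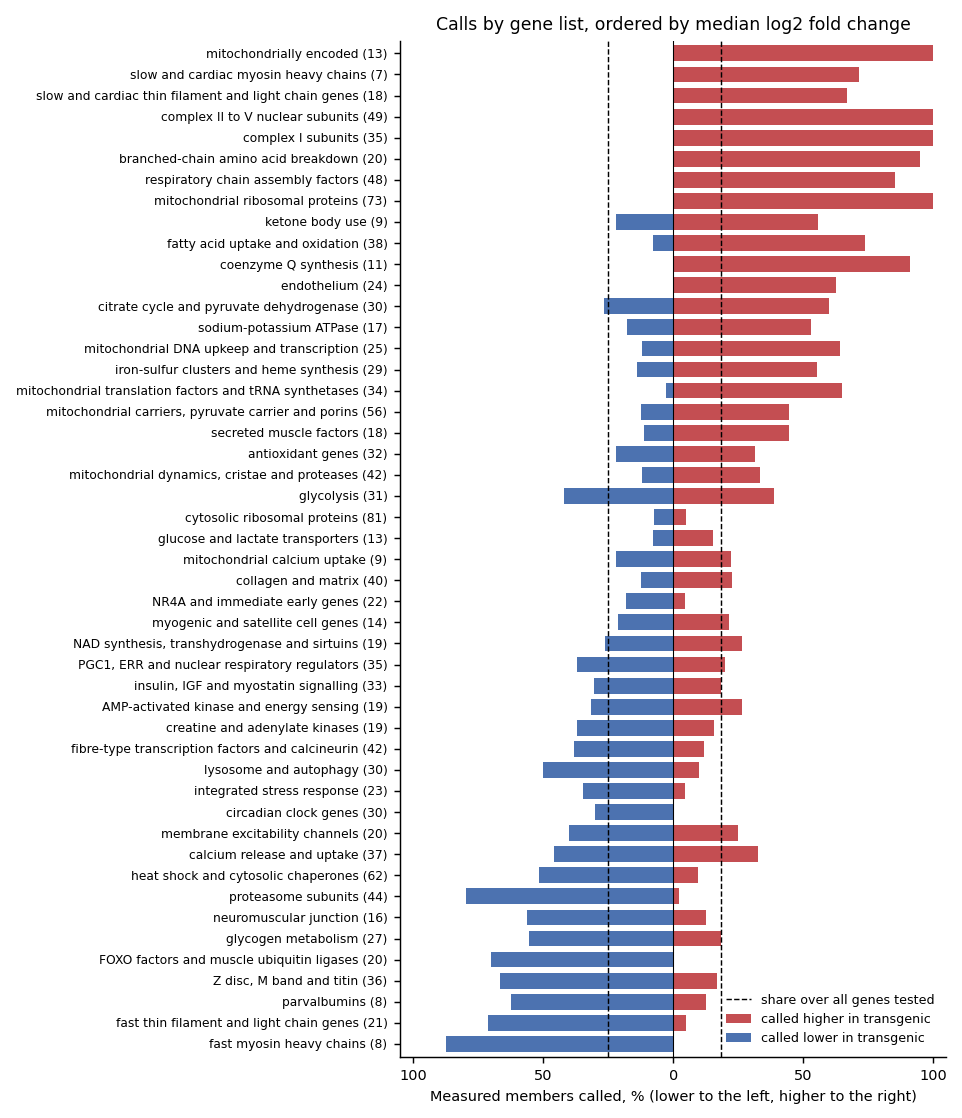
Share of measured members of each gene list called higher (right) or lower (left) in transgenic muscle, with the number measured in parentheses and dashed lines at the share over all genes tested, 18.3% higher and 25.1% lower. Lists are ordered by median log2 fold change, with mitochondrially encoded and slow sarcomere genes at the top and fast myosin, fast thin filament and parvalbumin genes at the bottom, and 4 mitochondrial lists reach 100%.

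The nuclear genes that build the respiratory chain rose together with its subunits. All 35 measured complex I subunit genes and all 49 of complexes II to V were called higher, with medians of 1.57 and 1.71 on the log2 scale, against 18.3% and -0.13 over all genes. Assembly factors, which insert cofactors and join subunits but are not part of the finished complexes, were called higher in 41 of 48 and lower in 0 (38 and 1 with library totals), with a median of 1.24. Cox17, the copper chaperone of cytochrome c oxidase, ranged from 28.0 to 39.6 CPM (median 36.8) in wild-type and from 109 to 186 CPM (median 139.7) in transgenic libraries and rose by 2.05 ± 0.14 (adjusted p = 1.86e-10). Every transgenic library lay above every wild-type one, as was so for 30 of the 48 factors, against 7.51% of all genes tested. The ATP synthase factor gene atpaf2 rose by 1.95 ± 0.20 and the complex III factor genes uqcc2 and ttc19 by 1.74 ± 0.18 and 1.63 ± 0.16. For acad9 and ecsit, both complex I assembly genes, and cox10, which makes heme A, the log2 fold changes of 0.51 ± 0.22, 0.34 ± 0.24 and 0.33 ± 0.19 did not pass the test.

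Coenzyme Q, the lipid that carries electrons between the complexes, is made by enzymes of which 10 of 11 were called higher and 0 lower (median 1.08). The gene pdss1, which starts the isoprenoid tail, rose by 1.67 ± 0.20, and the ring-modifying genes coq7, coq5 and coq3 by 1.46 ± 0.17, 1.42 ± 0.18 and 1.39 ± 0.22. Coq6 was at 0.33 ± 0.17 and not called. Of 29 measured iron-sulfur cluster and heme genes, 16 were called higher and 4 lower (11 and 8 with library totals). The cluster scaffold gene iscub ranged from 14.5 to 22.6 CPM (median 20.9) in wild-type and from 63.3 to 92.5 CPM (median 70.1) in transgenic libraries, and rose by 1.91 ± 0.12 (adjusted p = 8.05e-11) without overlap. The cluster transfer genes bola3, glrx5 and isca2 rose by 2.02 ± 0.18, 1.57 ± 0.18 and 1.42 ± 0.14. The 4 that fell were enzymes of heme synthesis, among them urod (-0.56 ± 0.17), ppox (-0.94 ± 0.29) and fech (-1.14 ± 0.34), the last of which inserts iron into the ring and was under 1 CPM in every library. Alas1, which encodes the first enzyme of that route and was chosen after its values were seen, rose by 0.66 ± 0.20. The oxygen-binding heme protein gene mb, myoglobin, ranged from 140.4 to 406 CPM (median 281) in wild-type and from 2576 to 4908 CPM (median 2967) in transgenic libraries, with a rise of 3.54 ± 0.23.

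Expression of the mitochondrial genome depends on nuclear genes. Of 25 measured genes for mitochondrial DNA upkeep and transcription, 16 were called higher and 3 lower (6 and 5 with library totals), with a median of 0.58, while the median of the 13 mitochondrial transcripts was 3.03. Tfam, which packages the genome and starts transcription, ranged from 8.56 to 19.7 CPM (median 17.3) in wild-type and from 21.0 to 27.5 CPM (median 23.5) in transgenic libraries and rose by 0.64 ± 0.18 (adjusted p = 0.00599) without overlap, while the RNA polymerase gene polrmt was uncalled at -0.23 ± 0.18. With library totals the call of tfam was lost and polrmt was called lower, at -0.65. Both were chosen after their values were seen. Of the genes that process or stabilise mitochondrial transcripts, slirp rose by 1.44 ± 0.18, hsd17b10, a subunit of the RNase P that frees tRNAs, by 1.43 ± 0.21, and fastkd3 by 1.397 ± 0.25. The mitochondrial ribosome followed in all of its 73 measured protein genes, whose fold changes ran from 0.42 to 2.11 (median 1.23). Of 34 translation factors and tRNA synthetases, 22 were called higher and 1 lower, or 7 and 5 with library totals. The factor genes gfm2 and mtg2 rose by 1.13 ± 0.15 and 1.16 ± 0.18. The member that fell was mtrf1, a peptide release factor gene, at -0.92 ± 0.15.

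Of the carriers of the inner membrane, 2 that swap ADP for ATP moved in opposite directions. The carrier gene slc25a5 ranged from 3260 to 7375 CPM (median 4760) in wild-type and from 22555 to 41997 CPM (median 29834) in transgenic libraries and rose by 2.62 ± 0.19 (adjusted p = 3.98e-10). Its paralogue slc25a4 ranged from 1981 to 4628 CPM (median 2983) in wild-type and from 75.3 to 439 CPM (median 236) in transgenic libraries and fell by 3.61 ± 0.31 (adjusted p = 6.99e-09). In both cases the groups did not overlap. Both subunits of the pyruvate carrier rose, mpc2 by 1.65 ± 0.19 and mpc1, chosen after its values were seen, by 1.45 ± 0.18. The glutamate carrier gene slc25a22 rose by 1.75 ± 0.18. The ornithine carrier gene slc25a15b rose by 3.11 ± 0.34 from a median of 1.12 CPM and its duplicate slc25a15a fell by 1.92 ± 0.30. Of the 56 carriers, porins and pyruvate carrier genes measured, 25 were called higher and 7 lower (20 and 11 with library totals), with a median of 0.39 that turned to -0.06 when only library totals were used for scaling. The calcium uptake machinery of the matrix had 2 of 9 members higher and 2 lower (1 and 4 with library totals). That is 22.2% each way against 18.3% and 25.1% over all genes. The gatekeeper gene micu2 rose by 1.16 ± 0.22, while smdt1a, an essential regulator of the uniporter, fell by 2.22 ± 0.24 and the pore gene mcu by 1.43 ± 0.34. The pore gene's ranges overlapped, and it reached at most 3.08 CPM.

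Among NAD and redox genes, nmrk1, which phosphorylates nicotinamide riboside on a route to NAD, ranged from 0.197 to 0.752 CPM (median 0.440) in wild-type and from 39.3 to 59.1 CPM (median 52.1) in transgenic libraries, and rose by 6.90 ± 0.31 (adjusted p = 3.98e-13). Its paralogue nmrk2 rose by 1.63 ± 0.19 and nnt, the transhydrogenase that makes mitochondrial NADPH, by 3.31 ± 0.28, whereas nnt2 was at 0.01 ± 0.18 and not called. The NAD-consuming enzymes' genes parp1 and sirt1 fell by 2.06 ± 0.23 and 0.92 ± 0.15. Of the 19 genes on this list 5 were called higher and 5 lower (4 and 12 with library totals), that is 26.3% each way. Among 32 antioxidant genes 10 were called higher and 7 lower (6 and 8 with library totals), that is 31.25% and 21.9%. Over all genes the shares were 18.3% and 25.1%. Gclc, the rate-limiting enzyme of glutathione synthesis, rose by 2.35 ± 0.20, and the mitochondrial enzymes sod2, prdx3 and txn2 by 1.54 ± 0.17, 1.22 ± 0.16 and 1.08 ± 0.16. The peroxidase genes gpx4a, gpx8 and gpx3 fell by 2.12 ± 0.34, 1.297 ± 0.30 and 2.67 ± 0.59, with overlapping ranges, and gpx3 reached at most 2.63 CPM. Gpx4b, the duplicate of gpx4a, was chosen after its values were seen and rose by 0.68 ± 0.16. Gpx4a was 64.2% of that pair's counts in wild type and 20.4% in transgenic muscle. The median of the antioxidant list was 0.25 and turned to -0.32 with library totals. Mitochondrial dynamics, cristae and protease genes had 14 of 42 higher and 5 lower (9 and 17 with library totals). The cristae junction genes chchd3b and minos1 rose by 3.25 ± 0.30 and 1.66 ± 0.17, and phb2a, a prohibitin scaffold gene, by 1.27 ± 0.14, while the abundant chchd3a and immt were at 0.34 ± 0.17 and 0.44 ± 0.22 and not called. The median of that list, 0.24, turned to -0.13 with library totals.

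At the pyruvate branch, lactate dehydrogenase of the muscle type, ldha, ranged from 336 to 978 CPM (median 500.1) in wild-type and from 19.3 to 58.9 CPM (median 40.8) in transgenic libraries, and fell by 3.85 ± 0.26 (adjusted p = 1.78e-10). The heart-type gene ldhba ranged from 156 to 434 CPM (median 356) in wild-type and from 1299 to 3470 CPM (median 2252) in transgenic libraries, and rose by 2.81 ± 0.23 (adjusted p = 2.5e-09), and its duplicate ldhbb rose from a median of 0.452 to 21.7 CPM. No transgenic library overlapped a wild-type library for any of the 3. Pyruvate dehydrogenase subunit genes pdha1a and pdhb rose by 1.71 ± 0.15 and 1.45 ± 0.16. Kinases that switch this enzyme off were lower: pdk3b ranged from 22.9 to 56.0 CPM (median 49.1) in wild-type and from 0.653 to 1.81 CPM (median 1.13) in transgenic libraries and fell by 5.10 ± 0.26 (adjusted p = 3.71e-12), pdk1 fell by 2.81 ± 0.34 and pdk3a by 1.53 ± 0.29, whereas pdk4 and pdk2a, at 0.12 ± 0.27 and -0.54 ± 0.34, were not called. The opposing phosphatase gene pdp1, which switches the enzyme on, also fell, by 1.44 ± 0.29. Pdk2b and pdp1 were chosen after their values were seen, and pdk2b fell by 1.66 ± 0.35. Of the 30 measured genes of pyruvate dehydrogenase and the citrate cycle 18 were called higher and 8 lower. The citrate cycle genes cs and idh2 rose by 1.60 ± 0.16 and 1.76 ± 0.16. The cytosolic malate dehydrogenase gene mdh1aa, part of the shuttle that brings reducing equivalents into mitochondria, ranged from 129.5 to 332 CPM (median 280.3) in wild-type and from 1773 to 2874 CPM (median 2307) in transgenic libraries and rose by 3.15 ± 0.21, while its duplicate mdh1ab was at -0.05 ± 0.52 and not called.

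Glycolysis genes split, with 12 of 31 called higher and 13 lower. Their list includes the lactate dehydrogenase genes ldha and ldhbb described above. The gene gapdh ranged from 9237 to 32428 CPM (median 26571) in wild-type and from 5171 to 8067 CPM (median 6864) in transgenic libraries and fell by 1.82 ± 0.26, aldoaa fell by 2.21 ± 0.28 and pkmb by 2.75 ± 0.30. Phosphoglycerate mutase gene pgam1b rose by 2.53 ± 0.22. The list median of 0.16 turned to -0.44 with library totals. Glycogen genes were called lower in 15 of 27 and higher in 5 (median -0.82). Gyg1b, a glycogenin that primes new glycogen particles, ranged from 30.0 to 76.4 CPM (median 40.9) in wild-type and from 0.160 to 1.58 CPM (median 0.440) in transgenic libraries, and fell by 6.21 ± 0.49 (adjusted p = 1.76e-09). The phosphorylase kinase subunit gene phka1b fell by 4.82 ± 0.38, while phkg1b, a copy of another subunit, rose by 1.89 ± 0.21 and its duplicate phkg1a, chosen after its values were seen, fell by 1.63 ± 0.23. The debranching enzyme gene agla fell by 1.60 ± 0.22 and epm2a, the laforin phosphatase gene, by 1.71 ± 0.18. Gys2, which in mammals is the liver form of glycogen synthase, rose by 3.01 ± 0.32 but stayed under 3 CPM. Of 13 glucose and lactate transporters, 2 were called higher and 1 lower (0 and 3 with library totals). Their accessory protein gene bsg and the lactate exporter gene slc16a3 were at 0.77 ± 0.14, called higher, and 0.08 ± 0.26, not called.

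**Figure D3:**
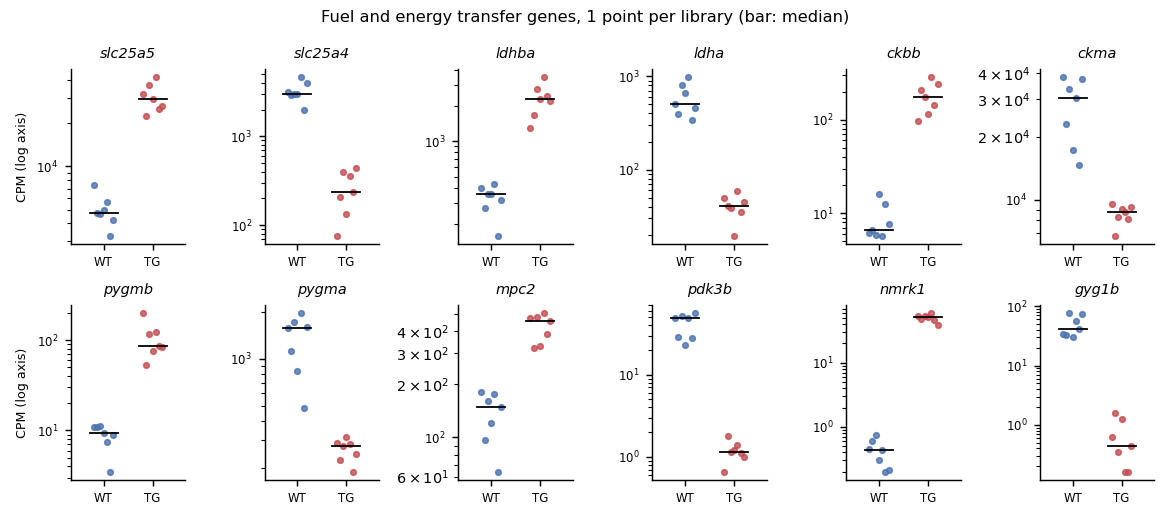
CPM (log axis) of 12 genes of energy transfer and fuel use in each of the 7 wild-type (WT) and 7 transgenic (TG) libraries, with a bar at the median. For the carrier pair slc25a5 and slc25a4, the lactate dehydrogenases ldhba and ldha, the creatine kinases ckbb and ckma and the phosphorylases pygmb and pygma, one gene lies higher and the other lower in all transgenic libraries.

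Fat and amino acid breakdown moved mostly one way. Of 38 fatty acid uptake and oxidation genes, 28 were called higher and 3 lower (22 and 5 with library totals), with a median of 1.18. Acat1, which acts in both fatty acid and ketone use, ranged from 42.9 to 108 CPM (median 82.6) in wild-type and from 261 to 443 CPM (median 356) in transgenic libraries and rose by 2.18 ± 0.20. The beta-oxidation genes hadhb, eci2, echs1 and etfb rose by 1.82 ± 0.18, 1.91 ± 0.22, 1.70 ± 0.17 and 1.66 ± 0.17. The 3 that fell were plin2, a lipid droplet coat gene (-1.51 ± 0.59), mlycd (-0.90 ± 0.27) and crata (-0.38 ± 0.15). The call of plin2 was lost without untrained_WT replicate 7 (adjusted p = 0.0578) or untrained_TG replicate 2 (adjusted p = 0.0791), and that of crata without untrained_TG replicate 7 (adjusted p = 0.0672) or 2 (adjusted p = 0.114), in edgeR's quasi-likelihood test. The acylcarnitine carrier gene slc25a20 was at 0.28 ± 0.17 and not called. Branched-chain amino acid breakdown had 19 of 20 members higher and 0 lower, led by bcat2 (2.54 ± 0.20), mccc2 (2.505 ± 0.19) and pcca (2.41 ± 0.22). In ketone use oxct1a rose by 1.27 ± 0.37 and bdh1 fell by 1.03 ± 0.23.

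Of the phosphocreatine genes, the muscle creatine kinase genes ckma and ckmb fell by 1.70 ± 0.20 and 2.02 ± 0.24, and the ranges of ckmb, at 20848 to 61535 CPM in wild type and 8662 to 13303 in transgenic muscle, did not overlap. The brain-type gene ckbb ranged from 5.69 to 15.9 CPM (median 6.70) in wild-type and from 96.9 to 284 CPM (median 173) in transgenic libraries, and rose by 4.38 ± 0.36 (adjusted p = 2.79e-09), while ckma and ckmb kept transgenic medians of 8787 and 10563 CPM. The mitochondrial kinase gene ckmt2b rose by 1.21 ± 0.20, while its duplicate ckmt2a was at 0.11 ± 0.18 and not called. Gamt, the last enzyme of creatine synthesis, fell by 2.82 ± 0.37, and ampd1, the AMP deaminase of fast fibres, by 2.17 ± 0.16. Of the 19 genes on this list 3 were called higher and 7 lower.

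Contractile protein genes are described by the fibre type that each is known from. Of 8 fast myosin heavy chain genes 7 were called lower and 0 higher, and myhb, at 0.36 ± 0.44, was not called. Fast thin filament and light chain genes had 15 of 21 lower and 1 higher, tnni2b.1, with a median of -3.06. Mybpc2b, the fast myosin-binding protein C, ranged from 1513 to 4298 CPM (median 3601) in wild-type and from 2.35 to 27.0 CPM (median 5.03) in transgenic libraries and fell by 8.51 ± 0.55 (adjusted p = 1.03e-10). Its cardiac relative mybpc3 ranged from 122 to 325 CPM (median 186) in wild-type and from 843 to 1943 CPM (median 1320) in transgenic libraries and rose by 2.80 ± 0.24 (adjusted p = 7.38e-09). Slow and cardiac thin filament and light chain genes had 12 of 18 higher and 0 lower (11 and 3 with library totals). Among those that rose were tnnc1b (3.37 ± 0.20), tnnt2d (3.26 ± 0.24), myl13 (2.81 ± 0.21) and myl10 (2.65 ± 0.19). Slow and cardiac myosin heavy chains had 5 of 7 higher (4 higher and 1 lower with library totals), with myh7bb at 3.62 ± 0.36, smyhc2 at 2.93 ± 0.29 and myh7ba at 2.60 ± 0.27. The cardiac genes vmhc and myh6, at -1.21 ± 0.51 and 0.33 ± 0.87, were not called, and nppa, which defines heart, had no counts in any of the 14 libraries.

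Most genes of the sarcomere's scaffold were lower. Of 36 Z disc, M band and titin genes 24 were called lower and 6 higher, with a median of -1.22. Myozenins, Z disc proteins that bind calcineurin, went both ways: myoz1a ranged from 375 to 1002 CPM (median 752) in wild-type and from 12.8 to 28.0 CPM (median 17.8) in transgenic libraries and fell by 5.24 ± 0.23 (adjusted p = 3.98e-13), myoz1b fell by 6.78 ± 0.30 and myoz3a by 4.26 ± 0.24, while myoz2b, the relative of the slow-fibre form in mammals, ranged from 68.6 to 167 CPM (median 118) in wild-type and from 427 to 642 CPM (median 502) in transgenic libraries and rose by 2.14 ± 0.19. Its duplicate myoz2a, chosen after its values were seen, fell by 1.98 ± 0.21. The M band genes myom2b and myom3 were at -4.96 ± 0.40 and 2.26 ± 0.29. The alpha-actinin genes of fast fibres, actn3a and actn3b, fell by 3.12 ± 0.22 and 2.37 ± 0.20, and ldb3a and desma, a Z disc linker and the intermediate filament desmin, by 1.84 ± 0.15 and 1.22 ± 0.18. Synpo2lb rose by 1.73 ± 0.23 and ankrd2, a stretch-responsive gene in mammals chosen after its values were seen, by 3.26 ± 0.64. Synpo2la, the duplicate of synpo2lb, was also chosen after its values were seen and fell by 1.83 ± 0.22. It was 82.6% of the pair's counts in wild type and 28.7% in transgenic muscle.

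Calcium handling genes came next. The release channel of the sarcoplasmic reticulum is encoded by ryr1a and ryr1b, known in zebrafish from slow and fast fibres respectively. Ryr1a ranged from 104 to 217 CPM (median 131) in wild-type and from 448 to 771 CPM (median 589) in transgenic libraries and rose by 2.098 ± 0.19 (adjusted p = 1.53e-08). Ryr1b ranged from 365 to 840.3 CPM (median 706) in wild-type and from 35.3 to 82.1 CPM (median 45.9) in transgenic libraries and fell by 3.67 ± 0.23 (adjusted p = 4.7e-11). In counts, uncorrected for length, ryr1a was 17.7% of the pair in wild type and 92.1% in transgenic muscle, while the pair together went from 804 to 662 CPM. Another channel gene, ryr3, fell by 4.42 ± 0.31. For the voltage sensor, cacna1sa rose by 2.31 ± 0.19 while cacna1sb, chosen after its values were seen, fell by 2.27 ± 0.22, and its auxiliary subunit gene cacng6b fell by 4.32 ± 0.32.

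Inside the store, calsequestrin casq1a ranged from 230.3 to 721 CPM (median 638) in wild-type and from 16.0 to 53.8 CPM (median 30.9) in transgenic libraries and fell by 4.20 ± 0.31 (adjusted p = 8.65e-10), whereas casq2, the cardiac and slow form, ranged from 15.8 to 57.6 CPM (median 37.9) in wild-type and from 206 to 321 CPM (median 227) in transgenic libraries and rose by 2.81 ± 0.24 (adjusted p = 4.43e-09). Casq1b was at 0.59 ± 0.26 and not called. The calcium pump gene atp2a1l ranged from 14434 to 31905 CPM (median 23386) in wild-type and from 103 to 1089 CPM (median 504) in transgenic libraries and fell by 5.57 ± 0.43 (adjusted p = 1.45e-09). The pump genes atp2a2a and atp2a1, chosen after their values were seen, rose by 2.31 ± 0.23 and 1.19 ± 0.22. Of the 37 genes for calcium release and uptake 12 were called higher and 17 lower. Of 8 parvalbumin genes, 5 fell and pvalb7 rose (0.82 ± 0.24): pvalb3 ranged from 3273 to 14979 CPM (median 11832) in wild-type and from 4.66 to 51.6 CPM (median 6.87) in transgenic libraries, with its highest transgenic value in replicate 7, and pvalb4, which fell by 3.74 ± 0.24, kept a transgenic median of 1458 CPM.

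Membrane pumps, channels and the synapse held further isoform pairs. The sodium pump's beta subunit gene atp1b1b ranged from 3.20 to 12.3 CPM (median 5.12) in wild-type and from 350.4 to 1421 CPM (median 449) in transgenic libraries and rose by 6.61 ± 0.44 (adjusted p = 1.3e-10), while atp1b3b ranged from 31.9 to 100.2 CPM (median 73.5) in wild-type and from 2.56 to 4.43 CPM (median 2.91) in transgenic libraries and fell by 4.42 ± 0.23 (adjusted p = 4.03e-12). Its catalytic gene atp1a2a was at -0.15 ± 0.16 and not called. The pump regulator fxyd1 rose by 1.58 ± 0.16 and fxyd6l fell by 2.59 ± 0.20. In all, 9 of 17 sodium pump genes were called higher and 3 lower (6 and 5 with library totals). Of 20 channel genes for membrane excitability 5 were called higher and 8 lower. The sodium channel gene scn4aa was at 3.53 to 10.1 CPM in wild type and at most 0.166 CPM in transgenic libraries, too low for a fold to be given. The chloride channel gene clcn1a fell by 2.52 ± 0.19 and the potassium channel gene kcnj12b by 4.59 ± 0.43. Abcc8, a subunit of ATP-gated potassium channels, rose by 1.97 ± 0.28, while its relative abcc9 was at -0.05 ± 0.14 and not called.

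At the neuromuscular junction 9 of 16 genes were called lower and 2 higher (13 and 1 with library totals). Chrng, the acetylcholine receptor subunit of fetal muscle in mammals, ranged from 0.309 to 1.81 CPM (median 0.993) in wild-type and from 3.70 to 13.96 CPM (median 9.19) in transgenic libraries and rose by 3.07 ± 0.41 (adjusted p = 2.54e-06), against a fall of the beta subunit gene chrnb1 by 2.097 ± 0.22. The delta subunit gene chrnd and the kinase gene musk were at -0.32 ± 0.14 and -0.10 ± 0.25 and not called. Ache, which clears acetylcholine, fell by 1.85 ± 0.23, and dmd and dag1, which anchor the membrane, by 1.63 ± 0.17 and 1.54 ± 0.21. Laminin alpha 2, the basement membrane partner of dag1 that is encoded by lama2, fell by 3.60 ± 0.36, within a matrix list of 9 of 40 higher and 5 lower (2 and 13 with library totals). Nerve and glia markers had 5 of 17 higher and 0 lower (3 and 4 with library totals), with list sums of 255 to 353 CPM in wild type and 320 to 447 CPM in transgenic muscle. Elavl3, which defines neurons, was at most 0.109 CPM.

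**Figure D4:**
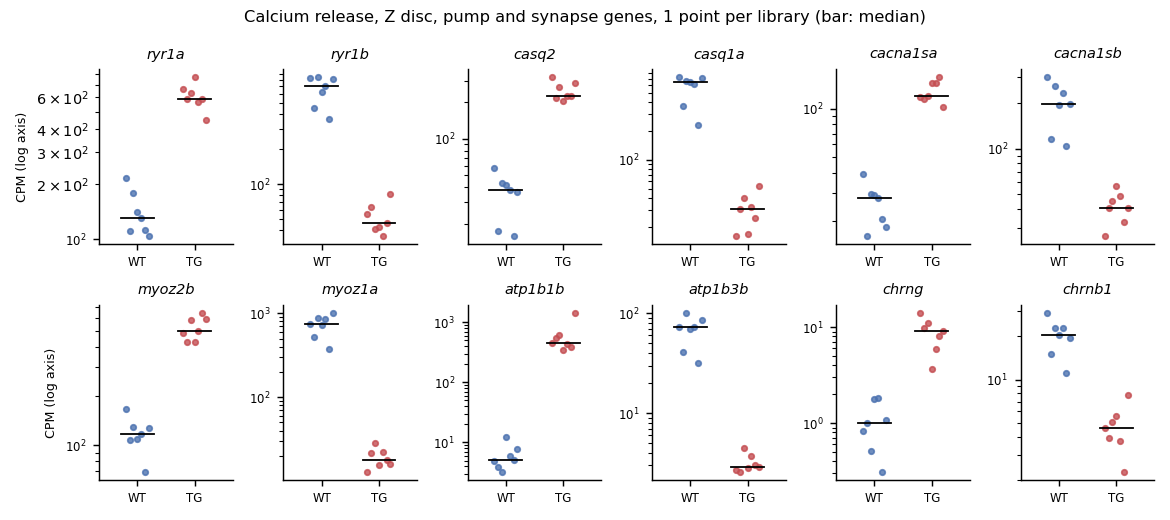
CPM (log axis) of 12 genes of calcium release, Z disc, sodium pump and synapse in each of the 7 wild-type (WT) and 7 transgenic (TG) libraries, with a bar at the median. In each of the 6 neighbouring pairs the first gene lies higher and the second lower in every transgenic library than in every wild-type library.

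Genes paired by symbol were then compared across the genome. Symbols that differ only in a final a or b gave 1876 pairs with both members, here called copies, tested. Pairs were formed from symbols alone, so some are distinct genes and not duplicates, for example rabggta and rabggtb. Both copies were called higher in 127 pairs (6.77%) and both lower in 195 (10.4%), while in 147 pairs (7.84%) 1 copy rose and the other fell. These stand beside 18.3% of all single genes called higher and 25.1% lower, and nothing is read from the count as such. In 815 pairs (43.4%) 1 copy was called, and in 592 (31.6%) neither. Without untrained_WT replicates 3 and 7, 126 pairs had copies called in opposite directions, and with library totals as the only scaling 90.

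Among pairs in which each copy reached a mean of 5 CPM in 1 of the groups, the 8 with the widest gap were led by pdlim5a and pdlim5b, which encode a Z disc linker. Pdlim5a ranged from 212 to 350.4 CPM (median 319.9) in wild-type and from 1.67 to 26.7 CPM (median 17.9) in transgenic libraries and fell by 4.19 ± 0.41 (adjusted p = 3.61e-08). Pdlim5b ranged from 25.8 to 39.8 CPM (median 31.2) in wild-type and from 122 to 164 CPM (median 138) in transgenic libraries and rose by 2.16 ± 0.12 (adjusted p = 1.43e-11), so that pdlim5a was 90.6% of the pair's counts in wild type and 10.5% in transgenic muscle. The membrane protein genes hhatla and hhatlb were at -3.41 ± 0.33 and 2.55 ± 0.30, tmem41ab and tmem41aa at -4.20 ± 0.46 and 1.85 ± 0.24, and wfs1a and wfs1b, which encode the endoplasmic reticulum protein wolframin, at -3.05 ± 0.23 and 2.08 ± 0.25. Of all 147 opposite pairs, the copy with more counts in wild type fell in 80 (54.4%) and rose in 67 (45.6%). Among the 8 it rose for svila, at 0.81 ± 0.31, whose partner svilb fell by 5.40 ± 0.39. The call of svila was lost without untrained_WT replicate 7 (adjusted p = 0.0685) or untrained_TG replicate 2 (adjusted p = 0.0773), again in edgeR's test. The phosphorylase copy pygmb rose by 3.57 ± 0.38 and pygma fell by 2.36 ± 0.25, but the pair's sum went from 1338 to 365 CPM. The cardiac actin gene actc1a rose by 2.29 ± 0.37 while actc1b fell, and the sum went from 24722 to 3385 CPM.

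**Figure D5:**
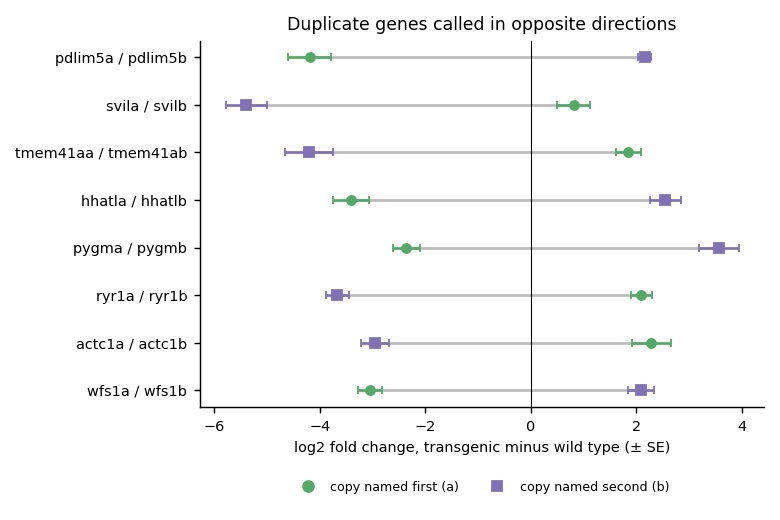
Log2 fold change (transgenic minus wild type, ± SE) of both copies of the 8 duplicate gene pairs with the widest gap between copies called in opposite directions. Gaps run from 5.14 log2 units for wfs1a and wfs1b to 6.35 for pdlim5a and pdlim5b.

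Transcription factors that set fibre type and calcineurin genes were examined as 1 list. Of 42 measured, 5 were called higher and 16 lower (1 and 23 with library totals). Sox6, known in zebrafish to hold slow genes off in fast fibres, ranged from 23.2 to 71.1 CPM (median 45.0) in wild-type and from 8.71 to 12.8 CPM (median 10.3) in transgenic libraries and fell by 1.98 ± 0.21 (adjusted p = 1.38e-07), with every transgenic library below every wild-type one. Six1b and eya4, whose mouse relatives drive fast fibre genes, fell by 1.52 ± 0.18 and 1.91 ± 0.18, mef2aa by 1.79 ± 0.22 and nfixb by 2.60 ± 0.23. Prdm1a, which directs slow fibre fate in zebrafish embryos, rose by 1.51 ± 0.43 but stayed under 1.4 CPM. Rcan3, a calcineurin regulator, rose by 2.64 ± 0.43, with 1 transgenic library at 100.2 CPM against a median of 16.9. Tbx15 and mef2d were at -0.11 ± 0.35 and -0.38 ± 0.19 and not called. Myogenic and satellite cell genes had 3 of 14 higher and 3 lower (1 and 4 with library totals), that is 21.4% each way against 18.3% and 25.1% over all genes. Myod1 was at 0.06 ± 0.31 and not called.

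Partners of PGC1alpha went both ways. Of 35 measured regulators 7 were called higher (20%) and 13 lower (37.1%), against 18.3% and 25.1% over all genes, or 3 and 22 with library totals. The retinoid X receptor gene rxrga fell by 2.94 ± 0.28, while its duplicate rxrgb rose by 1.26 ± 0.27. Rxrba, rxrbb and pparab fell by 1.28 ± 0.15, 1.69 ± 0.17 and 2.49 ± 0.35. Pparaa, the duplicate of pparab, was chosen after its values were seen and rose by 0.82 ± 0.25. It held 86.7% of the pair's counts in wild type and 98.5% in transgenic muscle. Nrip1b, a copy of the corepressor that restrains oxidative genes in mouse muscle, ranged from 14.6 to 62.0 CPM (median 46.0) in wild-type and from 4.28 to 16.4 CPM (median 8.23) in transgenic libraries, with overlapping ranges, and fell by 2.21 ± 0.35 (adjusted p = 2.09e-05). Its duplicate nrip1a, chosen after its values were seen, rose by 1.94 ± 0.54, also with overlapping ranges. Nrip1a was at 6.85 to 17.5 CPM (median 12.7) in wild-type and 5.055 to 99.3 CPM (median 29.7) in transgenic libraries. In untrained_TG replicates 1 and 2 it lay below every wild-type library, at 5.92 and 5.055 CPM. The thyroid hormone receptor gene thrb rose by 1.06 ± 0.14. Esrra, the estrogen-related receptor, ranged from 2.62 to 18.4 CPM (median 9.65) in wild-type and from 4.97 to 33.9 CPM (median 16.0) in transgenic libraries and was not called (0.86 ± 0.41 (adjusted p = 0.0932)), also chosen after its values were seen.

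Growth and energy signalling genes were tested as 2 lists. Myostatin b, an inhibitor of muscle growth, ranged from 6.12 to 20.1 CPM (median 12.5) in wild-type and from 59.7 to 108 CPM (median 71.5) in transgenic libraries and rose by 2.68 ± 0.26 (adjusted p = 4.03e-08). The insulin receptor copy insrb fell by 2.03 ± 0.21, pik3ca by 1.79 ± 0.29 and mtor by 0.99 ± 0.13, while igf2a rose by 1.23 ± 0.27. Insra, the duplicate of insrb, was chosen after its values were seen and rose by 0.52 ± 0.16. It held 77.0% of the pair's counts in wild type and 95.1% in transgenic muscle. Insulin, IGF and myostatin signalling had 6 of 33 higher and 10 lower, that is 18.2% and 30.3% against 18.3% and 25.1% over all genes, and 1 and 17 with library totals. AMP-activated kinase genes had 5 of 19 higher (26.3%) and 6 lower (31.6%), or 0 and 10 with library totals, among them prkab1b at 0.91 ± 0.17 and prkag2b at -1.296 ± 0.25.

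Genes of protein turnover fell widely. Proteasome subunits were called lower in 35 of 44 and higher in 1, psme2 (0.49 ± 0.20), whose call was lost without untrained_WT replicate 7 (adjusted p = 0.0594), untrained_TG replicate 7 (adjusted p = 0.0983) or untrained_TG replicate 2 (adjusted p = 0.08), with a median of -0.72. In 26 of the 44 every transgenic library lay below every wild-type library, against 8.26% of all genes tested. Psmd3 ranged from 54.1 to 104 CPM (median 80.0) in wild-type and from 24.4 to 30.8 CPM (median 29.1) in transgenic libraries, and psmd12, psmd4b and psmd6 fell by 1.17 ± 0.15, 1.31 ± 0.16 and 1.11 ± 0.13. FOXO factors and muscle ubiquitin ligases were called lower in 14 of 20 and higher in 0: fbxo32, atrogin-1, ranged from 92.9 to 579 CPM (median 251) in wild-type and from 6.17 to 67.1 CPM (median 33.0) in transgenic libraries, and trim63b fell by 1.78 ± 0.23 and fbxo30a by 2.44 ± 0.46. Lysosome and autophagy genes had 15 of 30 lower and 3 higher (19 and 1 with library totals). The lysosomal transcription factor gene tfe3b fell by 3.22 ± 0.34, the autophagy genes ulk1a and atg9a by 1.63 ± 0.31 and 1.38 ± 0.22, and the receptor gene sqstm1 rose by 0.96 ± 0.23.

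Heat shock and chaperone genes, mostly cytosolic, were called lower in 32 of 62 and higher in 6, with a median of -0.68. Bag2, a co-chaperone gene, ranged from 3.96 to 14.7 CPM (median 9.27) in wild-type and from 0.508 to 2.76 CPM (median 0.929) in transgenic libraries and fell by 2.86 ± 0.33 (adjusted p = 4.46e-07), and cct2 and cct7, subunits of the chaperonin that folds actin, fell by 1.35 ± 0.20 and 1.11 ± 0.14. The 6 that rose include the mitochondrial dnaja3b (1.60 ± 0.17) and the small heat shock genes hspb7 (1.83 ± 0.22) and hspb6 (1.25 ± 0.18). Hspa8 and hsp90ab1, the constitutive forms, were at 0.19 ± 0.22 and 0.10 ± 0.19 and not called. Integrated stress response genes had 8 of 23 lower and 1 higher, the kinase gene eif2ak3 (1.60 ± 0.21), with atf4a at -1.36 ± 0.33 and shmt2 at -1.95 ± 0.22. Of 81 cytosolic ribosomal protein genes 71 were not called, with 4 higher and 6 lower, or 1 and 32 with library totals. Clock genes had 9 of 30 lower and 0 higher (15 and 0 with library totals), and these 30% lower stand against 25.1% over all genes. Among those that fell were npas2 (-2.60 ± 0.32) and the output genes hlfa (-0.64 ± 0.12) and tefb (-1.09 ± 0.25), and sampling times are not given in the labels.

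Endothelial genes were called higher in 15 of 24 and lower in 0, with a median of 0.95, but with library totals as the only scaling in 2 and 3, with a median of 0.38. The angiopoietin receptor gene tek ranged from 11.7 to 18.4 CPM (median 13.5) in wild-type and from 25.7 to 50.4 CPM (median 38.8) in transgenic libraries and rose by 1.39 ± 0.21 (adjusted p = 1.15e-05), flt1, a VEGF receptor, rose by 1.11 ± 0.22, and she and cdh5 by 1.24 ± 0.20 and 1.12 ± 0.22. Kdr, vegfaa and cldn5b were at 0.34 ± 0.30, 0.29 ± 0.31 and 0.15 ± 0.29 and not called. Vegfab, a vascular growth factor, ranged from 43.4 to 118 CPM (median 78.2) in wild-type and from 251 to 437 CPM (median 287) in transgenic libraries and rose by 2.07 ± 0.22 (adjusted p = 1.38e-07). The chemokine gene cxcl12a rose by 1.68 ± 0.29, sparc by 1.18 ± 0.16 and fgf1a by 3.81 ± 0.39, while the peptide genes apln and ostn fell by 2.33 ± 0.33 and 2.01 ± 0.35. Secreted muscle factors as listed had 8 of 18 higher and 2 lower (4 and 6 with library totals), with a median of 0.30 that turned to -0.11 with library totals.

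Markers of other cell types were summed per library. White blood cell markers had 3 of 15 higher and 2 lower (0 and 2 with library totals), that is 20% and 13.3% against 18.3% and 25.1% over all genes. Their sums were 96.4 to 259 CPM in wild type and 144 to 230 CPM in transgenic muscle. Adipocyte markers had 3 of 6 higher (1 higher and 1 lower with library totals), with sums of 130 to 227 and 276 to 403 CPM, so those groups did not overlap, and adipoqb rose by 1.56 ± 0.33. Plin1, the other defining adipocyte marker, reached at most 0.0632 CPM in wild type, had no counts in transgenic libraries and was not tested. Red blood cell markers had 0 of 10 called and sums of 301 to 2136 and 385 to 1019 CPM. Skin markers had 1 of 12 lower, liver markers 0 of 12 and heart markers 0 of 3 called, and bone and cartilage markers had 1 of 9 higher and 3 lower. With library totals skin markers had 6 lower, and bone and cartilage markers 0 higher and 4 lower. Red blood cell and heart markers then had 1 lower each. The part of these cell types in the results above was not tested. Cryaa, a lens crystallin gene, was at 0 to 0.129 CPM in wild-type and 7.94 to 16.8 CPM in transgenic libraries, and bfsp2, a lens filament gene, at 0 to 0.234 and 0.533 to 4.37 CPM, while 4 of the 6 measured lens and retina genes were not called.

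Set against trained wild-type muscle, the transgenic libraries gave 3632 genes higher (19.2%) and 4255 lower (22.5%). This comparison shares the transgenic libraries with the one above, so its values are set side by side only. Complex I subunits were higher in 34 of 35 and complexes II to V in 47 of 49, with medians of 1.098 and 1.27 against trained and 1.57 and 1.71 against untrained muscle. Fast myosin heavy chains were lower in 7 of 8 and higher in 1, myhb, at 1.80 ± 0.45. Against untrained muscle myhb was not called. Its highest transgenic library was at 151 CPM, against a transgenic median of 37.45 CPM. The fold change of nmrk1 was 6.77 ± 0.31 against trained and 6.90 ± 0.31 against untrained muscle, that of ryr1b -3.62 ± 0.23 and -3.67 ± 0.23, and that of vegfab 1.51 ± 0.22 and 2.07 ± 0.22. Some genes stood elsewhere. The lipase gene lpl, chosen after its values were seen, averaged 35.3 ± 15.0 CPM in untrained wild type, 147 ± 72.9 in transgenic and 154 ± 22.6 in trained muscle, with fold changes of 2.06 ± 0.28 against untrained and -0.07 ± 0.27 (adjusted p = 0.868) against trained muscle. Esrra averaged 10.5 ± 4.98, 19.1 ± 11.4 and 46.4 ± 18.6 CPM in the same order and was lower in transgenic than in trained muscle by -1.28 ± 0.41 (adjusted p = 0.0146) on the log2 scale. Immediate early genes were lower in 11 of 22 against trained muscle and in 4 of 22 against untrained muscle (18.2%, with 25.1% over all genes).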

How the data were processed

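Polyadenylated RNA of zebrafish skeletal muscle was sequenced in pairs from stranded libraries, per the labels' protocols. STAR 2.4.0i, HTSeq 0.9.1, DESeq2 and the GRCz10 build are named in the submitters' processing notes; neither the gene annotation's version nor whether counting used strand is stated there, so overlapping and antisense genes, mt-nd6 among them, cannot be told apart. The authors deposited whole-number counts per gene, without normalization, for 7 libraries of each group. They also deposited tables of their own comparisons with log2 fold changes and p-values. From these deposited tables gene symbols were taken, and numbers of calls by the sign of the fold change and the adjusted p-value. The same deposited tables hold a test statistic, which is a score, and a signal per library, that is counts which the authors divided by a size factor; neither is used. Tests planned for 8 samples a group were run on 7.

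Counts of 31953 genes, 4680 of them without counts, were filtered by group and scaled with TMM in edgeR 4.0.16 (R 4.3.3), which left 18947 genes. A quasi-likelihood F test with group as the only term was fitted to all 21 libraries, and p-values were adjusted over all genes tested by the Benjamini-Hochberg method with a threshold of 0.05. Fold changes are log2, transgenic minus wild type, ± SE taken as the size of the fold change over the root of F, and CPM are on TMM-scaled library sizes. CPM and shares are not corrected for gene length, so levels of different genes are not compared; the shares of duplicate pairs are shares of counts only. Shares of counts were compared by an exact two-sided permutation test of 3432 splits. No 2 libraries of a group agreed within sampling noise (chi-square per gene of at least 82.4). The procedures were tested on simulated data. Alternatives used DESeq2 1.42.0, limma 3.58.1, other scalings and filters, a replicate block and left-out libraries; the duplicate pairs and count shares without untrained_WT replicates 3 and 7, and the pairs without 1 replicate 7, were added after seeing the data. Leaving out each library in turn was run for those named only.

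The gene lists and members were chosen with earlier results of these data known. Genes named are ppargc1a, ppargc1b and actc1b, the 12 highest and 12 lowest called fold changes with a mean of at least 50 counts in each group and no overlap, the 10 most abundant genes of each group, the leading called and the most abundant uncalled members of each list, every member of short lists, and the 8 widest opposite duplicate pairs; others are marked as chosen after their values were seen. No sequences are printed, and 1 gene that the rule names is not reported here.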

Additional observations from a re-analysis of the deposited data

Results flagged for a closer look

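In some groups of 7 libraries 1 library lay far from the others, by Dixon's criterion on log2 CPM, which chance meets in about 1 in 20 groups. The criterion was tried on 538 group values, those of 258 genes among them, and 29 met it. That is near the rate that chance gives, and nothing is read from the number. untrained_WT replicate 8 was the highest library for ampd1 (1059 CPM), fbxo30a (17.6 CPM), hspb6 (2492 CPM) and tmem41ab (389.5 CPM). untrained_WT replicate 7 was the lowest library for actn3b (1433 CPM), atp2a1 (1369 CPM), cct2 (6.08 CPM), esrra (2.62 CPM), eya4 (24.8 CPM), fastkd3 (6.23 CPM), mybpc2b (1513 CPM), pvalb3 (3273 CPM), pvalb4 (8937 CPM), pygmb (3.46 CPM) and ttc19 (4.26 CPM). The TMM factor of this library was 2.01, against 0.906 to 1.35 in the other wild-type libraries. A larger factor lowers every CPM of a library, and its part in these values was not tested. untrained_WT replicate 5 was the lowest library for psmd12 (32.1 CPM). untrained_WT replicate 3 was the lowest library for cox17 (28.0 CPM). untrained_WT replicate 2 was the highest library for tfe3b (4.34 CPM). untrained_TG replicate 7 was the lowest library for pdk3a (0.171 CPM). untrained_TG replicate 7 was the highest library for atp1b1b (1421 CPM), myhc4 (212 CPM) and pvalb3 (51.6 CPM). untrained_TG replicate 6 was the lowest library for mtrf1 (1.66 CPM) and polrmt (2.98 CPM). untrained_TG replicate 5 was the highest library for ckmt2a (4405 CPM). untrained_TG replicate 2 was the highest library for scn4aa (0.166 CPM). untrained_TG replicate 1 was the highest library for ampd1 (244 CPM), pth1b (300.0 CPM) and rcan3 (100.2 CPM).

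Reads that the authors' counting assigned to no feature, which no comparison uses, came to 9.18% ± 0.579 (SD, n = 7) in transgenic and 6.19% ± 1.01 in wild-type libraries, and the ranges of 8.39% to 10.004% and 5.02% to 8.09% did not overlap.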

How the results depend on the processing

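Genes called higher and lower numbered 3468 and 4764, and stayed within 1.5 times of these under DESeq2 (3891 and 5229), limma-voom with quality weights (3932 and 4637), median-ratio scaling (3628 and 4560), nuclear genes only (3941 and 4210), no filter (3198 and 5550) and the 14 libraries alone (3173 and 4234). Library totals as the only scaling gave 1538 and 8139, with 15.9% of calls higher in place of 42.1%, and moved the median of all genes from -0.135 to -0.644 on the log2 scale. A filter at 10 CPM gave 1712 and 2036 among fewer genes tested, and calls for a change beyond 1 log2 unit 880 and 1272. The setting of nuclear genes only left out genes whose symbols begin with mt-, so any other transcripts of the mitochondrial genome stayed in. Leaving out libraries gave 3376 to 3611 higher and 4057 to 4732 lower. The comparison as reported did not pair samples by replicate number. Correlations of deviations at shared numbers ran from -0.266 to 0.108, which cannot show whether samples of 1 number were handled together. With the replicate block 3225 genes were called higher and 4045 lower, of which 3088 and 3879 had the same call without it. Of 116 list counts (58 lists, each way), 50 moved by over 1.5 times with library totals and 3 with median-ratio scaling, and most of those that bear on a statement are given beside it. With library totals the calls of alas1, bsg, cdh5, flt1, igf2a, prdm1a, prkab1b, psme2, pvalb7, sqstm1, svila and tfam were lost. Under the same scaling abcc9, atp1a2a, chrnd, mef2d, musk, pdk2a, polrmt, ppargc1a and vmhc, uncalled in the comparison as reported, were called lower. Their log2 fold changes then ran from -1.69 for vmhc to -0.48 for musk. Opposite pairs, formed by symbol, numbered 147, 162 with DESeq2, 90 with library totals, and 126 to 144 without libraries. With the mitochondrial protein genes left out of the total, the share of cytosolic ribosomal proteins turned to 0.705 percentage points higher and that of the 10 most abundant genes to -16.07 (exact permutation p = 0.142 and 0.000583). Single genes that changed sign were uncalled in the comparison as reported, and their log2 fold change under each setting follows. With nuclear genes only it was 0.042 for abcc9 and 0.051 for mdh1ab. With library totals it was -0.069 for chchd3a, -0.30 for ckmt2a, -0.45 for cldn5b, -0.068 for coq6, -0.096 for cox10, -0.038 for ecsit, -0.52 for hsp90ab1, -0.33 for hspa8, -0.23 for kdr, -0.036 for myh6, -0.10 for myhb, -0.56 for myod1, -0.40 for nnt2, -0.28 for pdk4, -0.10 for ppargc1b, -0.33 for slc16a3, -0.16 for slc25a20 and -0.076 for vegfaa. With limma-voom it was -0.030 for ckmt2a, -1.29 for myh6, -0.061 for myhb and -0.15 for nnt2. Without untrained_WT replicates 3 and 7 it was -0.095 for ckmt2a, -0.17 for nnt2 and -0.067 for slc16a3. With the stricter filter it was -0.041 for hsp90ab1, -0.068 for myod1 and -0.031 for nnt2. With the replicate block it was 0.28 for mdh1ab, 0.030 for musk, -1.03 for myh6 and -0.035 for myhb. With no filter it was -0.044 for nnt2. Without 1 library it ran from 0.030 to 0.16 for ckmt2a, from -0.21 to 0.0097 for musk, from -0.29 to 0.42 for myhb, from -0.092 to 0.082 for nnt2 and from 0.0010 to 0.17 for slc16a3. The cause of these changes was not tested. Depth limits low genes most in untrained_TG replicate 7, the shallowest library at 42.8 M counts.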
